A study of Mus musculus with 24 samples.

Results

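The GAS6 and TAM receptor axis comprises 5 genes here: the ligand genes Gas6 and Pros1 and the receptor genes Axl, Mertk and Tyro3. They were taken by gene symbol from the count tables of all 6 groups, and are 5 of 38937 genes in the table of the short hairpin RNA experiment and 5 of 39310 genes in the table of the small interfering RNA experiment. All 5 passed the filter on low counts in both tables. The axis was chosen with the low Gas6 level after Atf4 knockdown already known, so the values of the 5 genes in that experiment are given as a description, without a test.

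The study sequenced RNA of mouse lung adenocarcinoma cells grown in culture and sorted as GFP+ CD45-, in 24 libraries. In the hairpin experiment, S/S cells carried a control hairpin (S/S shControl, 4 libraries) or a hairpin against Atf4 (S/S shAtf4, 4 libraries). In the siRNA experiment, S/S and A/A cells each received control siRNA or siRNA against Chchd10, with 4 libraries in each of the groups named S/S siControl and S/S siChchd10 and, for the other genotype, A/A siControl and A/A siChchd10. S/S denotes wild-type eIF2α, the translation initiation factor phosphorylated in the integrated stress response, and A/A denotes eIF2α whose regulatory serine is replaced by alanine. The A/A and S/S assignment comes from the sample titles, since the genotype label reads WT for S/S shControl, S/S siControl and A/A siControl alike and otherwise names the knockdown. Atf4 encodes a transcription factor of that response and Chchd10 a small protein found between the mitochondrial membranes. The labels give no animal ages or numbers of tumour lines. Nor do they tell if libraries within a group are separate cultures, so p-values measure only the spread between these libraries, which may be technical. A genotype difference and a difference between tumour lines cannot be told apart, nor can loss of a target and an off-target effect of its hairpin or siRNA.

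GAS6 and protein S, the product of Pros1, are secreted proteins that need vitamin K-dependent carboxylation to bind phosphatidylserine on dying cells and membranes. They bridge it to the TAM receptors, a family of receptor tyrosine kinases. GAS6 can activate AXL, MERTK and TYRO3, whereas protein S acts on MERTK and TYRO3 and not on AXL. In the lung and its tumours, AXL is known for its links to cell plasticity and drug tolerance, and MERTK for the clearance of apoptotic cells by macrophages.

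In the GRCm38 build with GENCODE annotation, Gas6 (ENSMUSG00000031451) lies on the minus strand of chromosome 8 from 13465374 to 13494490, and Pros1 (ENSMUSG00000022912) on the plus strand of chromosome 16 from 62854307 to 62929346. Axl (ENSMUSG00000002602) lies on the minus strand of chromosome 7 from 25757273 to 25788705. Mertk (ENSMUSG00000014361) and Tyro3 (ENSMUSG00000027298) are both on the plus strand of chromosome 2, from 128698956 to 128802894 and from 119797733 to 119818104. Exons of Gas6 share 34 bases with the antisense gene Tmem255b, which had 0 to 0.219 CPM (counts per 1e6 of the normalised library total) in the 24 libraries. Whether reads were counted by strand is not given in the sources used here.

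The promoters of Gas6 and Axl are shown because Gas6 gave the widest separation in the Atf4 experiment and Axl the steadiest level of the axis. Each sequence is the 250 bases before the RefSeq start site on GRCm38.p6, 5′ to 3′ on the gene's strand, at chr8:13494536-13494785 for Gas6 and chr7:25788734-25788983 for Axl, both on the minus strand. Capitals mark matches to the searched motifs on either strand.
Gas6: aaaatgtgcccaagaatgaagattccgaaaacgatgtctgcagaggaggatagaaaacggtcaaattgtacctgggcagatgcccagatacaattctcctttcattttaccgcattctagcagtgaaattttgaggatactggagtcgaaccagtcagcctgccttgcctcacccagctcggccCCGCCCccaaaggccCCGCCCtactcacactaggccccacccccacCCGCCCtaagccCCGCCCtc
Axl: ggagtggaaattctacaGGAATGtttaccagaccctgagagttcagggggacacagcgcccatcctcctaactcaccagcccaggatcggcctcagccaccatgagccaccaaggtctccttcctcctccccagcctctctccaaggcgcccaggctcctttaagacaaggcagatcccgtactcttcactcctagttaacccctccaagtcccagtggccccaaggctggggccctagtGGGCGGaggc

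A set of 5 motifs was searched on both strands, and no matches overlapped in these windows. The Gas6 window held 4 GC boxes (GGGCGG, read as CCGCCC on the gene's strand), at 66, 51, 20 and 8 bases before the start, and 32.7% of 32851 promoters of the same length held at least 1. The Axl window held 1 GC box at 10 bases and 1 TEAD element (GGAATG) at 233 bases before the start; 12.6% of promoters held a TEAD element. The letters of the ATF4 and C/EBP composite element (TGATGNAA, in 3.45% of promoters), the AP-1 element (TGANTCA, 6.75%) and the cAMP response element (TGACGTCA, 1.55%) were in neither window. A match describes letters and not a bound site.

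Total counts per library, in units of 1e6, were 14.1 to 70.9 in the hairpin experiment and 42.9 to 75.4 in the siRNA experiment. The targets followed their labels: Atf4 was at 498 to 835 CPM in S/S shControl and 225 to 319 CPM in S/S shAtf4, and Chchd10 under its siRNA was at 5.34 to 6.82 CPM in S/S cells (controls 38.1 to 46.0 CPM) and 1.37 to 2.15 CPM in A/A cells (controls 7.97 to 10.2 CPM). Epithelial keratins were high (Krt8 1021 to 2918 CPM). Epcam, another epithelial marker, averaged 36.7 CPM in S/S shControl and 35.3 CPM in S/S shAtf4. Its means were 8.93 CPM in S/S siControl, 34.8 CPM in S/S siChchd10, 1.44 CPM in A/A siControl and 2.57 CPM in A/A siChchd10. The leukocyte markers C1qb and Tyrobp had no count in 24 libraries and Ptprc, which encodes CD45, reached at most 0.239 CPM. From the same list of 16 macrophage and leukocyte genes, Cd14 was at 17.5 to 76.6 CPM and Mrc1 at 38.3 to 180 CPM across the libraries. The summed list was 139 to 179 CPM in S/S shControl, 163 to 200 CPM in S/S shAtf4, 153 to 163 CPM in S/S siControl, 158 to 171 CPM in S/S siChchd10, 140 to 147 CPM in A/A siControl and 115 to 121 CPM in A/A siChchd10, and its part in the differences of the axis was not tested. Nkx2-1, the lung lineage factor, had no count in the 8 hairpin libraries, where 3 counts would be 0.0413 to 0.214 CPM, and reached up to 137 CPM in the siRNA libraries. The tables were normalised separately, so no level was tested between them. Whether the S/S cells of the hairpin and siRNA experiments were the same line is not given in the labels.

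Axl was by far the most abundant TAM receptor RNA and the steadiest gene of the axis. It was measured at 1215, 1321, 1299 and 1401 CPM in S/S shControl, at 908, 985, 945 and 1001 CPM in S/S siControl and at 886, 916, 933 and 929 CPM in A/A siControl. Per base of exon, Axl made up 96.5% ± 0.0883 (SD, n = 4) of the summed level of the 3 receptors in S/S siControl and 98.3% ± 0.132 (SD, n = 4) in A/A siControl. On the same scale it was 33.4 ± 1.13 times the level of Tyro3 in S/S siControl and 72.1 ± 5.77 times in A/A siControl (SD, n = 4 each). Tyro3 stood above Mertk by a ratio of 4.42 ± 0.243 in S/S siControl and 4.63 ± 0.562 in A/A siControl (SD, n = 4 each).

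**Figure D1:**
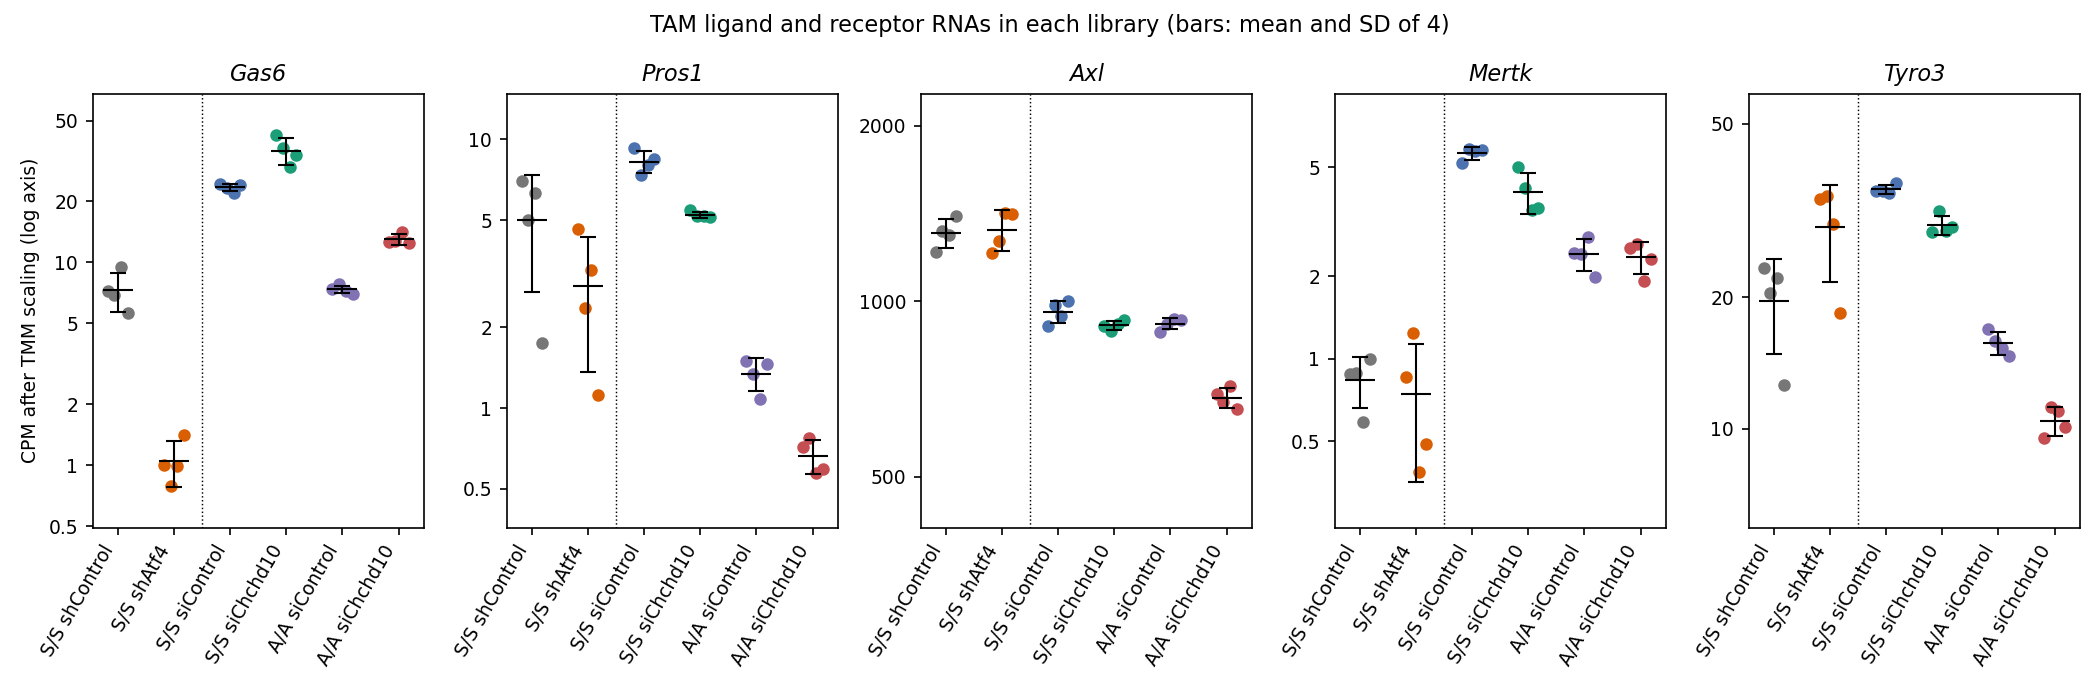
Level of each gene of the axis (CPM, log axis) in each of the 24 libraries, by group, with 1 panel per gene. Gas6 lies at 22.1 to 24.2 CPM in S/S siControl and 7.03 to 7.79 CPM in A/A siControl, while Axl stays between 655 and 1420 CPM in all libraries.

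Among the ligands, Gas6 was the more abundant RNA per base of exon in every siRNA library. Its share of the 2 ligands was 82.0% ± 1.19 in S/S siControl, 91.5% ± 1.06 in S/S siChchd10, 89.8% ± 1.36 in A/A siControl and 96.9% ± 0.521 in A/A siChchd10 (SD, n = 4 each). In the hairpin experiment the share was 71.4% ± 8.96 in S/S shControl and 40.1% ± 18.4 in S/S shAtf4 (SD, n = 4 each), with S/S shAtf4 libraries running from 25.7% to 67.0%. Axl stood above Gas6 in every group on this scale, by a mean ratio of 13.2 in S/S siChchd10 and 665 in S/S shAtf4.

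Knockdown of Atf4 asks which RNAs of S/S cells differ when this stress-response factor is reduced. Gas6, the shared ligand, was at 7.25, 6.89, 9.45 and 5.61 CPM in S/S shControl and at 0.997, 0.788, 0.988 and 1.41 CPM in S/S shAtf4. These levels rest on 96 to 527 reads a library in S/S shControl and 14 to 81 in S/S shAtf4. Every S/S shAtf4 library lay below every S/S shControl library, a separation in this direction that 3.57% of the 14697 genes tested also had. The fitted difference was -2.76 on the log2 scale (SE 0.251), or 14.7% of the control level, and 0.184% of genes had a larger difference in either direction. Because the axis was chosen on this value, it stands as a description. In bulk samples, fewer cells of a type and less RNA per cell cannot be told apart.

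Pros1, the ligand of MERTK and TYRO3, was at 7.03, 5.02, 6.30 and 1.75 CPM in S/S shControl and at 4.63, 2.36, 3.27 and 1.12 CPM in S/S shAtf4. The groups overlapped, and the fitted difference was -0.87 (log2, SE 0.494). The S/S shAtf4 library was the lower in 4 of 4 same-numbered pairs. Tyro3 was at 23.4, 20.5, 22.2 and 12.6 CPM in S/S shControl and at 33.7, 34.1, 29.5 and 18.5 CPM in S/S shAtf4. These groups also overlapped, and the fitted difference was 0.55 (log2, SE 0.241). For Tyro3 the S/S shAtf4 library was the higher in 4 of 4 pairs. Pairing by number is an assumption, and the share of all genes with 4 of 4 pairs in the same direction was not computed. The library numbered 4 was the lowest of its group for Pros1 and Tyro3 in both arms.

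Axl, the receptor selective for GAS6, was at 1209, 1267, 1420 and 1413 CPM in S/S shAtf4, overlapping S/S shControl, and its fitted difference was 0.02 (log2, SE 0.0873). Mertk, the receptor of apoptotic cell clearance, had few counts in the hairpin experiment, at 0.880, 0.887, 0.586 and 0.993 CPM in S/S shControl and 0.855, 1.24, 0.387 and 0.489 CPM in S/S shAtf4, with a fitted difference of -0.23 (log2, SE 0.392). These levels rest on 9 to 64 reads a library, and the groups overlapped.

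Across all genes, 79 of 14697 (0.538%) had an adjusted p under 0.05 in this comparison with edgeR's quasi-likelihood test and Benjamini-Hochberg adjustment. With the library number as a block, 2969 genes (20.2%) did. Gas6 then stood at -2.72 (SE 0.222), Pros1 at -0.83 (SE 0.177) and Tyro3 at 0.56 (SE 0.0831), all log2. The SEs without a block were 0.251, 0.494 and 0.241. Without both libraries numbered 4, Gas6 stood at -3.07 and Tyro3 at 0.56. Y-linked RNA, summed over 4 genes, was 111 to 135 CPM in S/S shControl and 1.46 to 3.56 CPM in S/S shAtf4. The summed fibroblast markers were 3.62 to 18.4 CPM and 2.76 to 14.1 CPM in these groups. Most of that sum was Col1a1, at 3.45 to 17.9 CPM and 2.62 to 13.8 CPM. Lum, a fibroblast proteoglycan, was at most at 0.0194 CPM in any library. The part of Y-linked and fibroblast RNA in the differences was not tested.

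The Chchd10 siRNA in S/S cells addresses how the axis responds where eIF2α can be phosphorylated. Gas6 rose, Pros1, Mertk and Tyro3 fell, and Axl did not pass the test: 4 of 5 genes passed, where 28% of the 18138 genes tested did. Gas6 was at 24.2, 23.3, 22.1 and 24.1 CPM under control siRNA and 42.6, 36.7, 29.4 and 33.8 CPM in S/S siChchd10. All 4 siChchd10 libraries lay above all 4 control libraries (25.5% of genes had groups without overlap in either direction), and the rise was 0.60 (log2, SE 0.0745; edgeR adjusted p = 5.81e-07), or 1.52-fold.

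The other ligand moved the opposite way. Pros1 was at 9.26, 7.35, 8.02 and 8.43 CPM under control siRNA and 5.46, 5.16, 5.18 and 5.15 CPM in S/S siChchd10, without overlap, a change of -0.65 (log2, SE 0.0969; edgeR adjusted p = 5.92e-06). Tyro3 was at 35.1, 35.1, 34.8 and 36.7 CPM under control siRNA and 28.3, 31.5, 28.4 and 29.0 CPM in S/S siChchd10, also without overlap, a change of -0.27 (log2, SE 0.0540; edgeR adjusted p = 0.000256). Mertk was at 5.17, 5.80, 5.74 and 5.78 CPM and 4.98, 4.21, 3.49 and 3.55 CPM, with every siChchd10 library below every control library, a change of -0.47 (log2, SE 0.117; edgeR adjusted p = 0.00259). Axl was at 907, 889, 914 and 928 CPM in S/S siChchd10, overlapping its controls, and its difference of -0.08 had a 95% interval from -0.16 to 0.01 (log2; edgeR adjusted p = 0.175).

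The same siRNA in A/A cells addresses the response where eIF2α lacks the phosphorylated serine. Gas6 rose and Pros1, Axl and Tyro3 fell, while Mertk did not pass the test; 4 of 5 genes passed, against 53.7% of all genes tested. Gas6 was at 7.41, 7.79, 7.25 and 7.03 CPM in A/A siControl and 12.6, 12.8, 14.1 and 12.4 CPM in A/A siChchd10. The groups were separate, as for 49.9% of genes in either direction, and the rise was 0.81 (log2, SE 0.0862; edgeR adjusted p = 1.31e-08), or 1.76-fold.

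Pros1 was at 1.49, 1.34, 1.08 and 1.46 CPM in A/A siControl and 0.715, 0.776, 0.575 and 0.591 CPM in A/A siChchd10, a change of -1.03 (log2, SE 0.154; edgeR adjusted p = 2.19e-06). Axl was at 693, 672, 717 and 655 CPM in A/A siChchd10, below all 4 A/A siControl libraries, a change of -0.42 (log2, SE 0.0415; edgeR adjusted p = 1.47e-09). Tyro3 was at 16.9, 15.9, 15.3 and 14.7 CPM and 9.50, 11.2, 11.0 and 10.1 CPM, again without overlap, a change of -0.59 (log2, SE 0.0603; edgeR adjusted p = 2.79e-09). Mertk was at 2.42, 2.41, 2.78 and 1.99 CPM and 2.53, 2.62, 1.92 and 2.30 CPM. These groups overlapped, and the difference of -0.04 had a 95% interval from -0.31 to 0.24 (log2; edgeR adjusted p = 0.838). The summed alveolar type 2 and lung lineage markers were 381 to 425 CPM in A/A siControl and 1214 to 1418 CPM in A/A siChchd10, and their part in these changes was not tested.

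**Figure D2:**
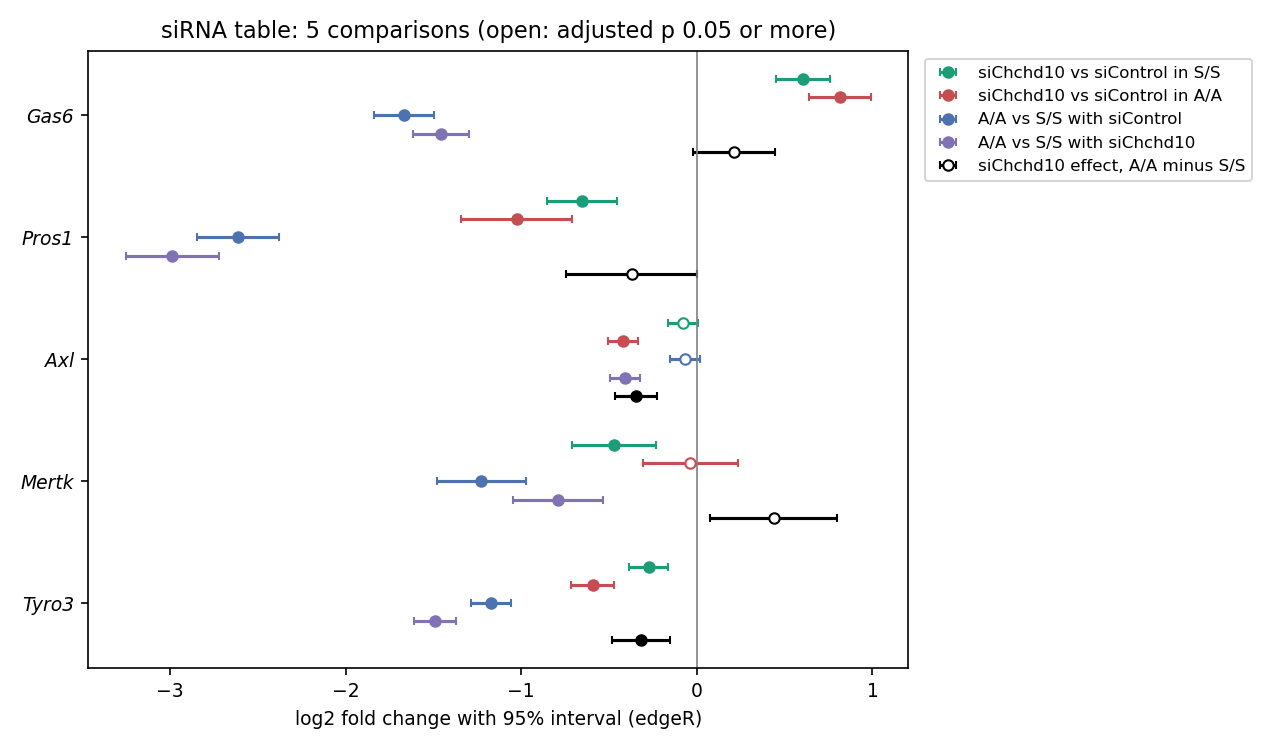
Differences of the 5 genes (log2) in the comparisons of the siRNA experiment, with 95% intervals; filled points have an adjusted p under 0.05 and open points do not. Gas6 lies above 0 for Chchd10 knockdown in both genotypes (0.60 and 0.81), and Axl lies at -0.08 in S/S and -0.42 in A/A cells.

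An interaction term tested whether the 2 responses differed, which 35.6% of all genes passed and 2 of the 5 genes passed. The response of Axl in A/A cells less that in S/S cells was -0.34 (log2, SE 0.0585; edgeR adjusted p = 3.85e-05), and that of Tyro3 was -0.32 (log2, SE 0.0809; edgeR adjusted p = 0.00277). For Gas6 the difference of 0.21 had a 95% interval from -0.02 to 0.44 (log2; edgeR adjusted p = 0.158); without S/S siChchd10 replicate 1, the highest Gas6 library, it was 0.32 (edgeR adjusted p = 0.0109). The difference for Pros1 was -0.37 with an interval from -0.74 to 0.00162 (log2; edgeR adjusted p = 0.115). That for Mertk was 0.44 with an interval from 0.07 to 0.80 (log2; edgeR adjusted p = 0.0544), and it passed with DESeq2 (0.46, adjusted p = 0.0459).

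The comparison of A/A with S/S cells under control siRNA asks how the axis differs between the genotypes at baseline. It shares its control libraries with the knockdown comparisons. Gas6, Pros1, Mertk and Tyro3 were lower in A/A cells, with 4 of 5 genes passing, where 70.2% of all genes passed and 34.7% were lower. From the library values above, Gas6 differed by -1.67 (log2, SE 0.0838; edgeR adjusted p = 1.16e-15), Pros1 by -2.61 and Tyro3 by -1.17, each without overlap between the groups, which 31.8% of genes had in this direction. Mertk differed by -1.23, also without overlap (edgeR adjusted p = 6.44e-10). Axl differed by -0.07, with a 95% interval from -0.15 to 0.02 (log2; edgeR adjusted p = 0.15).

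After Chchd10 knockdown, all 5 genes were lower in A/A than in S/S cells, where 70.5% of all genes passed and 35.8% were lower; 32.3% were lower without overlap of the groups, as were Gas6, Pros1, Tyro3, Mertk and Axl. Gas6 differed by -1.46, Pros1 by -2.99, Tyro3 by -1.49, Mertk by -0.79 and Axl by -0.41 (log2; edgeR adjusted p = 6.14e-10 for Axl). Summed Y-linked RNA was 104 to 144 CPM in the S/S and 288 to 380 CPM in the A/A siRNA libraries, and the summed lung lineage markers were at most 47.9 CPM in the S/S and at least 381 CPM in the A/A libraries; their part in the genotype differences was not tested. For 3 genes at 0.05 CPM or less in A/A siChchd10 and 20 CPM or more in S/S libraries, A/A siControl replicate 1 had 6.15% of the S/S siControl level. Without that library the A/A against S/S siControl differences were -1.67 for Gas6, -2.67 for Pros1, -1.23 for Mertk, -1.21 for Tyro3 and -0.05 for Axl.

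The order of the 4 siRNA groups differed between genes. Pros1 and Tyro3 ran from S/S siControl through S/S siChchd10 and A/A siControl to A/A siChchd10, with no overlap between neighbours. Mertk followed the same order by its means, but its A/A groups overlapped. Gas6 ran from S/S siChchd10 at 35.6 ± 5.52 CPM through S/S siControl at 23.4 ± 0.996 CPM and A/A siChchd10 at 13.0 ± 0.752 CPM to A/A siControl at 7.37 ± 0.320 CPM (SD, n = 4 each), with no overlap between neighbours. For Axl the first 3 groups overlapped and A/A siChchd10 stood alone below them.

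Genes working around the axis were taken from 9 lists, chosen with earlier results of these data known. In the Atf4 comparison 0 rose and 2 fell of 128 tested, beside the 0.538% of all genes. These were the flippase gene Atp8a1 (-2.31) and the collagen receptor gene Ddr2 (-4.99). Atp8a1 was low, at a mean of 0.224 CPM in S/S shAtf4 and 1.12 CPM in S/S shControl. Ddr2 was at 0.541 ± 0.293 CPM and a widely spread 15.2 ± 11.6 CPM (SD, n = 4 each). With the library number as a block, 25 rose and 22 fell, where 20.2% of all genes passed. Chchd10 knockdown in S/S cells gave 39 higher and 28 lower of 144, where 28% of all genes passed, and in A/A cells 33 higher and 70 lower, where 53.7% of all genes passed. Of the 7 genes of the vitamin K cycle, which GAS6 and protein S need, 1 rose and 2 fell in S/S cells, with the gamma-carboxylase gene Ggcx at 0.55. In A/A cells 2 rose and 4 fell, with the vitamin K epoxide reductase gene Vkorc1 at 0.66 and the quinone reductase gene Nqo1 at -2.33 (log2).

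Of 16 tested genes for other phosphatidylserine bridging molecules and receptors, 4 rose and 2 fell in S/S cells, and 2 rose and 10 fell in A/A cells. For this and the following lists, the share of all genes passing was 28% in S/S and 53.7% in A/A cells. The scavenger receptor gene Cd36 rose by 0.81 and 1.05 and the integrin ligand gene Edil3 changed by -1.08 and -1.87 in S/S and A/A cells (log2). Of 12 genes for receptor sheddases, gamma-secretase and their inhibitors, which include the protease that releases the AXL ectodomain, 5 rose and 3 fell in S/S cells and 5 rose and 4 fell in A/A cells. The metalloproteinase inhibitor gene Timp3 changed by -1.60 in S/S and by 1.78 in A/A cells. Among 21 signalling adaptors and effectors, 4 rose and 3 fell in S/S and 7 rose and 7 fell in A/A cells. The YAP/TEAD list holds factors and targets of a pathway known to drive Axl. It had 5 higher and 8 lower of 27 in S/S cells and 3 higher and 20 lower in A/A cells. The medians were -0.05 and -0.25 beside 0.000378 and -0.01 over all genes (log2). Under control siRNA, 8 were higher and 16 lower in A/A than in S/S cells, where 70.2% of all genes passed. The list median there was -0.53, and Axl differed by -0.07 (log2). A link between this list and Axl was not tested.

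Of 7 tested genes for other Gla proteins, which carry the same carboxylated domain, 4 rose and 0 fell in S/S cells and 5 rose and 2 fell in A/A cells. Beside the knockdown counts in this paragraph, 28% of all genes passed in S/S and 53.7% in A/A cells. The prothrombin gene F2 rose by 2.53 and 2.81 (log2), and the medians of the Gla list were 0.42 and 0.39. Of 12 scramblases and flippases, which set the exposure of phosphatidylserine, 2 rose and 3 fell in S/S cells and 2 rose and 6 fell in A/A cells, with medians of -0.05 and -0.23. Of 8 AP-1 factors, 3 rose and 1 fell in S/S cells and 2 rose and 3 fell in A/A cells, and Fos changed by 0.96 and -0.73 (log2). Of 34 tested genes for other receptor tyrosine kinases, 11 rose and 6 fell in S/S cells after Chchd10 knockdown (50%, beside 28% of all genes). In A/A cells 5 rose and 14 fell (55.9%, beside 53.7% of all genes). Under control siRNA, 11 were higher and 18 lower in A/A than in S/S cells, where 70.2% of all genes passed, with Fgfr2 at 3.03 and Fgfr1 at -5.77 (log2).

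Likeness was measured as the root mean square difference between 2 genes' centred log2 levels over 24 libraries, among 10473 genes. The profiles nearest to Gas6 were those of Kank1 (0.322), Abca8b (0.410), Lonrf3 (0.461), Cxcl3 (0.541) and Slc36a4 (0.569), against a spread of 1.07 for Gas6 itself. The 24 libraries include those on which the axis was chosen. After Chchd10 knockdown in S/S cells these genes changed by -0.04, 0.15, 0.17, 0.54 and -0.11 (log2), beside 0.60 for Gas6. In A/A cells they changed by 0.25, 1.21, 0.32, 1.08 and -0.08, beside 0.81 for Gas6. Those nearest to Axl were Klhdc10 (0.0696), Ppp1r18 (0.0721), Csnk1e (0.0732), Baiap2l1 (0.0750) and Rabep1 (0.0808), against 0.169 for Axl. Over the 16 siRNA libraries alone, 1 of the 5 nearest genes was shared for each, Cxcl3 for Gas6 and Csnk1e for Axl. All of these levels come from the same libraries and share their depth.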

How the data were processed

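Sorted tumour cells were profiled by RNA sequencing in 24 libraries. The authors deposited whole-number read counts per gene, per the labels; the submitters' processing notes name mm10 and DESeq2 1.24.0, while aligner, counter and annotation were not stated in those sources. Counts were tested with edgeR 4.0.16 (R 4.3.3; filterByExpr, TMM, robust quasi-likelihood fit), each table fitted whole, with Benjamini-Hochberg adjustment over 14697 genes (hairpin) or 18138 genes (siRNA) and a threshold of 0.05. DESeq2 1.42.0 was an alternative, beside another scaling, no filter, a replicate block and leaving out each library. CPM used TMM-scaled totals; levels per length used exon length from GENCODE. The edgeR fit was tested on simulated data. The members and gene lists were chosen with earlier results of these data known. Besides the members and targets, each list could name its largest rise and fall past the threshold per comparison, and the 5 profiles nearest to Gas6 and to Axl were named. In the hairpin table, same-numbered libraries deviated together (correlations 0.241 to 0.789 in 4 of 4 pairs). The highest correlations with a differently numbered library were 0.236, 0.279, 0.314 and -0.306 for numbers 1 to 4. For number 3 this exceeded the same-number value of 0.241. The numbers were taken to pair the libraries, as an assumption, and the main fit has no block. A gene that this rule would name is not reported here.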

Additional observations from a re-analysis of the deposited data

Results flagged for a closer look

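In 30 groups of 4 libraries, 2 had a library far from the other 3; chance flags about 5% of groups. Pros1 was at 5.46 CPM in S/S siChchd10 replicate 1, against 5.15 to 5.18 CPM in the others. Mertk was at 5.17 CPM in S/S siControl replicate 1, against 5.74 to 5.80 CPM in the others. The response to Chchd10 knockdown differed between the genotypes for 2 of the 5 genes by the interaction test: Axl by -0.344 and Tyro3 by -0.318 (log2, A/A minus S/S). Of all genes tested, 35.6% passed this test. A larger difference was found in 38.5% of genes for Axl and 41.3% for Tyro3, so neither stood out by size.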

How the results depend on the processing

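Of the tested values of the 5 genes in the siRNA experiment under the alternatives, 349 kept their direction and side of the threshold, 9 passed it newly and 2 changed sign; in the hairpin experiment 61 of 65 descriptive values kept their sign, 3 of Axl (-0.0148 to -0.0121) and 1 of Mertk (0.00704, without both libraries numbered 4) did not, and Gas6, Pros1 and Tyro3 kept theirs in 13 of 13 alternatives each. The hairpin count of 79 genes became 468 with DESeq2, 2969 with the replicate block, 1726 without both libraries numbered 4, and 13 (without S/S shAtf4 replicate 2) to 536 (without S/S shControl replicate 4) on leaving out each library. In the siRNA experiment, where the numbers did not pair the libraries (correlations -0.171 to 0.157), the replicate block changed no call of the 5 genes. The Mertk interaction passed with RLE scaling (0.456, adjusted p = 0.0439), without the filter (0.445, 0.0481) and with DESeq2 (0.458, 0.0459); leaving out each library gave 0.371 to 0.563, with adjusted p up to 0.119. The Gas6 interaction ran from 0.129 to 0.320 on leaving out each library (adjusted p up to 0.326). Axl between genotypes under control siRNA was -0.0835 with DESeq2 (adjusted p = 0.0445; up to 0.381 on leaving out each library). Mertk after Chchd10 knockdown in A/A cells ran from -0.100 to 0.0545, changing sign without A/A siControl replicate 3 (0.0519) or A/A siChchd10 replicate 3 (0.0545). With the longest transcript as length, the Axl share of receptors was 98.2, 98.1, 96.6 and 96.0% and the Gas6 share of ligands 96.2, 87.7, 89.7 and 78.6% in A/A siChchd10, A/A siControl, S/S siChchd10 and S/S siControl. Of the 5 profiles nearest to Gas6 and to Axl, 1 each remained over the siRNA libraries alone. The cause of these shifts was not tested. Depth limits Mertk in the hairpin experiment, at 9 to 64 reads a library. It also limits Gas6 in S/S shAtf4, at 14 to 81 reads a library. Pros1 had 42 to 76 reads in S/S shAtf4, as few as 30 in S/S shControl and 27 to 45 in A/A siChchd10.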
